A study of Mus musculus with 6 samples.

Results

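Amino acid transporters were described at the RNA level in 3 peripheral T-cell lymphomas (PTCL) of Dnmt3b+/- mice. The 9 members were taken by gene symbol from the deposited expression table, which lists 34245 genes under 34199 symbols, and all 9 were found. They are the heavy chain Slc3a2, its light chains Slc7a5, Slc7a6, Slc7a7 and Slc7a11, and the transporters Slc7a1, Slc1a5, Slc38a1 and Slc38a2, which work without that chain. The series holds RNA-seq of 3 tumors, and bisulfite sequencing of 3 samples that was not analysed here. Each RNA-seq library came from a separate tumor, taken from a lymph node of a terminally sick FVB mouse. Every mouse carried 1 conventional knockout allele of Dnmt3b, which encodes a de novo DNA methyltransferase. This germline change is shared by all cells of the animal and is not limited to T cells. The labels name no treatment and no age. No control library was among the samples used, so the values describe these tumors and no test between groups was made.

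Cells import most amino acids through membrane carriers of the solute carrier (SLC) families. Several of the Slc7 carriers are light chains that reach the cell surface only when bound to the glycoprotein CD98, the product of Slc3a2, and most of them exchange an amino acid inside the cell for another outside. T cells that are activated raise their uptake of glutamine and leucine, and amino acids then feed growth signalling at the lysosome through the kinase mTOR.

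Values are FPKM, reads per kilobase of merged exons and per 1000000 reads of the library, on a linear scale. The depth recovered from the table was 30726570 reads for tumor 1, 18969988 for tumor 2 and 20770928 for tumor 3. The T-cell label was checked first against 9 marker genes, and all 9 were at or above 1 FPKM in every tumor. By mean their most abundant gene was Cd8b1, a chain of the CD8 co-receptor. It stood at 435 FPKM (tumor 1), 166 (tumor 2) and 443 (tumor 3). In tumor 2 Lck lay above Cd8b1, at 208 FPKM. Tumor 2 was the lowest for 4 of the 9 markers, Cd8b1 among them. For 4 others, Cd3e, Cd3g, Cd5 and Lck, it was the top one. Cd4 stood at 28.4 FPKM (tumor 1), 4.28 (tumor 2) and 8.22 (tumor 3). Dnmt3b itself was read at 0.975, 1.55 and 1.25 FPKM in tumors 1, 2 and 3. The tissue was bulk lymph node, in which fewer cells of a type and less RNA per cell cannot be told apart.

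Of the 9 members, 8 were at or above 1 FPKM in every tumor, a level that 28.4% of all 34199 symbols reached. The exception was Slc7a11. Members were chosen with earlier results of these data known, so this contrast is a description only. Ordered by mean, the members ran from Slc38a2 through Slc3a2, Slc1a5, Slc38a1, Slc7a5, Slc7a6, Slc7a1 and Slc7a7 to Slc7a11. On the deposited scale neighbours in this order overlapped across tumors except at 3 places. These lay between Slc7a5 and Slc7a6, between Slc7a1 and Slc7a7, and between Slc7a7 and Slc7a11. The first 5 members were thus linked through their neighbours, but not all of the same level, since the lowest Slc38a2 value, 26.0 FPKM, lay above the highest of Slc38a1, 24.5, and of Slc7a5, 21.8. Slc7a6 and Slc7a1 overlapped below them, and Slc7a7 and Slc7a11 formed the low end. With each tumor rescaled to the same sum, 2 of these separations were lost. The lowest Slc38a2 value, 116, then lay below the highest of Slc38a1, 118. Likewise the lowest Slc7a5 value, 50.2, lay below the highest of Slc7a6, 55.2. Within the first 5 Slc38a2 exceeded Slc3a2, Slc3a2 exceeded Slc1a5, and Slc1a5 exceeded Slc38a1 in each of the 3 tumors, whereas Slc38a1 exceeded Slc7a5 in 2 of 3. Slc7a6 likewise exceeded Slc7a1 in 2 of 3 tumors.

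**Figure D1:**
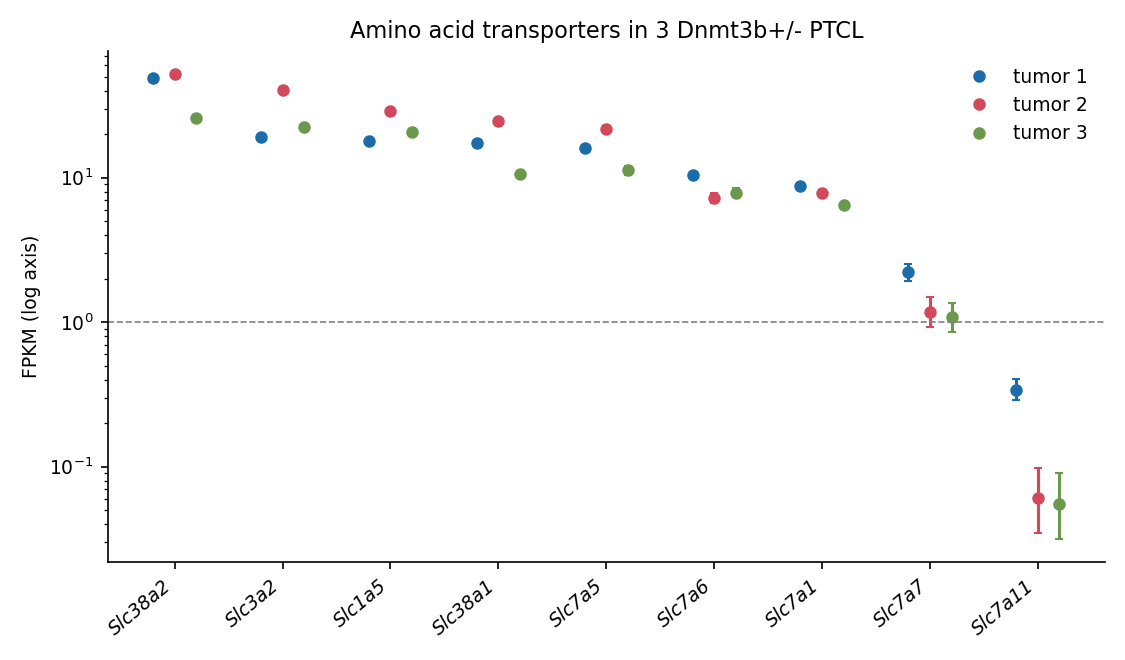
FPKM of the 9 members in tumors 1, 2 and 3 on a log axis, ordered by mean, with bars for 95% counting intervals (none drawn for Slc38a2, whose read number was not resolved) and a dashed line at 1 FPKM. Slc7a11 lies below the line in every tumor, and tumor 2 holds the highest point of the 5 members on the left, although rescaling to equal sums put Slc38a2 highest in tumor 1.

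Promoter sequence was looked up for the members because the sites of 3 transcription factors are known from genes of amino acid shortage, growth and oxidative stress. RefSeq windows of 300 bases, from 250 before to 50 after a gene start on GRCm38.p6, were present for 6 of the 9 members, in 12 windows. Slc1a5, Slc7a5 and Slc38a1 had no window. The letters searched, on both strands, were TGATGNAA for the amino acid response element bound by Atf4, CACGTG for the E-box bound by Myc, and TGACNNNGC for the antioxidant response element bound by Nrf2.

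The amino acid response element was matched in Slc7a11 and Slc7a7, and 3.97% of all 32851 windows hold a match. Slc7a11 held 2 matches in opposite orientation, 66 and 47 bases before its start. Slc7a7 has 5 windows, and the outermost also held 2 matches, both on the strand of the gene, which began 141 bases and 1 base before that start. Of all windows 0.0700% hold 2 or more. The antioxidant response element had 3 distinct matches in the 12 windows, in Slc38a2, Slc7a1 and Slc7a6, and 12.4% of all windows hold one. The match of Slc7a6 lies in both of its windows, which overlap. The E-box was matched in none of the 12 windows, against 7.15% of all windows. Some members have several windows, so a count of members cannot be set directly against a share of windows. Stretches of 90 bases are shown for the most and the least abundant member and for Slc7a7, the other member with a match to the amino acid response element. Capitals mark the amino acid response element in Slc7a11 (chr3:50443624-50443713, minus strand) and Slc7a7 (chr14:54418025-54418114, minus strand), and the antioxidant response element in Slc38a2 (chr15:96699739-96699828, minus strand). None of these stretches overlaps an annotated exon, and a match is a description of letters and not a shown site.
Slc7a11: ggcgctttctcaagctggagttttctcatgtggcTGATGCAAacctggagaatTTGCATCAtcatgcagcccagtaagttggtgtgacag
Slc7a7: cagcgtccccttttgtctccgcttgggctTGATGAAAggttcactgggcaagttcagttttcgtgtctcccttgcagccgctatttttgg
Slc38a2: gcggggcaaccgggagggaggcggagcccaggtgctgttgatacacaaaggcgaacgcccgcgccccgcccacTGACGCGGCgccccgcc

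The same windows differ in CpG sites, the dinucleotide that DNA methyltransferases act on. The 250 bases before the Slc38a2 start hold 30 CpG sites, those before the Slc7a11 start 2, and the median of all windows is 6. Slc7a6 reached 30 and 38 CpG sites in its 2 windows, and Slc7a7 between 4 and 10 in its 5. Methylation of these windows was not analysed here.

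Slc3a2 (ENSMUSG00000010095, chr19:8706882-8723369, minus strand) encodes the heavy chain of CD98, which carries light chains to the cell surface. Its FPKM was 19.1 (tumor 1), 40.8 (tumor 2) and 22.3 (tumor 3), a mean of 27.4 ± 11.7 (SD, n = 3). Tumor 2 stood apart, and its value was 2.14 times that of tumor 1, with a 95% counting interval of 2.02 to 2.26. This interval and those that follow cover counting error only. Tumors 1 and 3 lay within 1.17-fold of each other.

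Slc7a5 (ENSMUSG00000040010, chr8:121881150-121907694, minus strand) encodes LAT1, the light chain that exchanges glutamine for leucine and other large neutral amino acids. It was read at 16.2 FPKM (tumor 1), 21.8 (tumor 2) and 11.2 (tumor 3), a mean of 16.4 ± 5.30 (SD, n = 3). Tumor 2 was again the highest, here 1.94 times tumor 3 (1.79 to 2.11). On the deposited scale the lowest tumor was thus another one than for its heavy chain, whereas with each tumor rescaled to the same sum tumor 3 was the lowest for both.

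Slc7a6 (ENSMUSG00000031904, chr8:106168857-106198706, plus strand) encodes y+LAT2, which exchanges cationic for neutral amino acids. Its FPKM was 10.4 (tumor 1), 7.21 (tumor 2) and 7.88 (tumor 3), a mean of 8.51 ± 1.70 (SD, n = 3). Here tumor 1 was the highest, at 1.45 times tumor 2 (1.32 to 1.59). The difference between tumors 2 and 3 was within counting error, since the interval of their ratio, 0.821 to 1.02, holds 1.

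Slc7a7 (ENSMUSG00000000958, chr14:54369442-54417780, minus strand) encodes y+LAT1, the sister light chain that is best known from epithelia and macrophages. Tumor 1 gave 2.22 FPKM from 225 reads. Tumors 2 and 3 gave 1.18 and 1.08 FPKM from 74 reads each. The ratio of tumor 1 to tumor 3 was 2.06 (1.57 to 2.71), while tumors 2 and 3 could not be separated at this depth (ratio 1.09, 0.782 to 1.53). Its exons share 232 bases with Oxa1l on the other strand, a gene at 8.23 to 9.41 FPKM, and whether counting used strand is not given in the sources used here, so some of these reads may belong to Oxa1l.

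Slc7a11 (ENSMUSG00000027737, chr3:49892526-50443614, minus strand) encodes xCT, the light chain that imports cystine in exchange for glutamate. It was the lowest member in every tumor, at 0.341 FPKM (tumor 1), 0.0606 (tumor 2) and 0.0553 (tumor 3). Behind these values stood 146, 16 and 16 reads, above the 3 reads that a count of 0 would allow. Tumor 1 was 6.17 times tumor 3, with a wide interval of 3.67 to 11.1, and gave 74.6% of the 3 tumors' summed FPKM. Between tumors 2 and 3 no difference was detectable at this depth (ratio 1.09, 0.513 to 2.34).

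Since light chains need the heavy chain, their levels were set side by side per length. Slc3a2 divided by the sum of Slc7a5, Slc7a6, Slc7a7, Slc7a8, Slc7a10 and Slc7a11 was 0.617 (tumor 1), 1.31 (tumor 2) and 1.10 (tumor 3), a mean of 1.01 ± 0.354 (SD, n = 3). On the deposited scale the summed light chains themselves were nearly equal in tumors 1 and 2, at 31.0 and 31.2 FPKM. They were lower in tumor 3, at 20.3. On that scale the ratio therefore differed between tumors 1 and 2 through the heavy chain and not through the sum. The make-up of the sum differed as well. Slc7a5 supplied 52.2% of it in tumor 1, 69.9% in tumor 2 and 55.2% in tumor 3. Slc7a6 supplied 33.7%, 23.1% and 38.8% in the same order, and was the smaller of this pair in each tumor. Slc7a7 stayed between 3.80% and 7.18%, and Slc7a11 between 0.194% and 1.10%. Slc7a8, the light chain LAT2, made up 5.21% in tumor 1, 2.89% in tumor 2 and 0.294% in tumor 3.

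**Figure D2:**
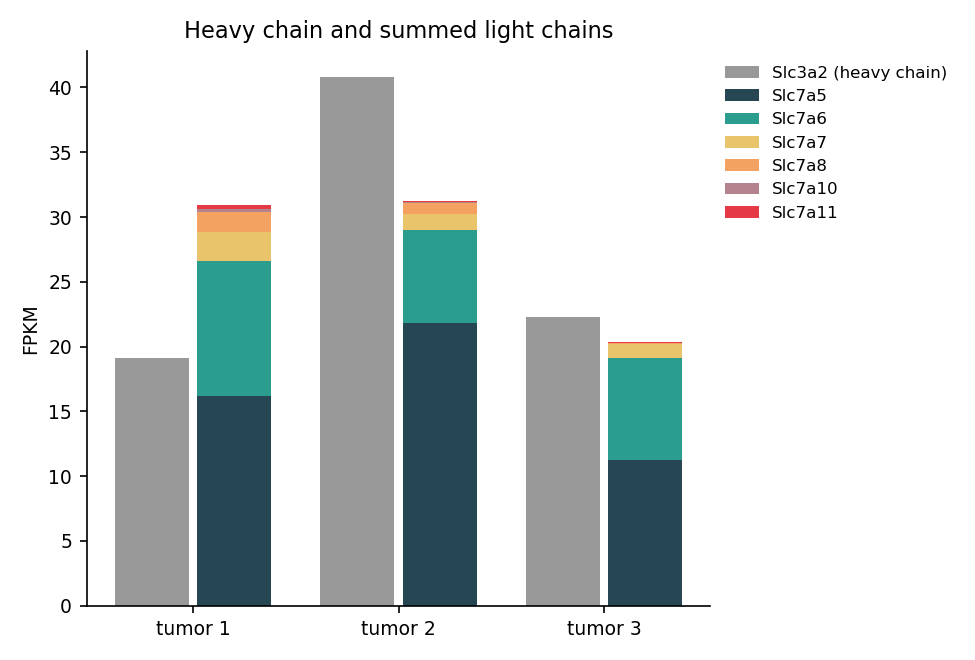
FPKM of the heavy chain Slc3a2 (grey bars) beside the stacked FPKM of 6 light chains (coloured bars) in each tumor. The heavy chain bar is shorter than the light chain bar in tumor 1 and taller in tumors 2 and 3.

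Slc7a1 (ENSMUSG00000041313, chr5:148327410-148399904, minus strand) encodes CAT1, the carrier of arginine and lysine that needs no heavy chain. Its FPKM was 8.77 (tumor 1), 7.78 (tumor 2) and 6.45 (tumor 3), a mean of 7.67 ± 1.16 (SD, n = 3). With a ratio of 1.36 between tumors 1 and 3 (1.28 to 1.45) it was the most even member on the deposited scale. When each tumor was rescaled to the same sum its ratio was 1.61, above those of Slc1a5 at 1.51 and Slc7a6 at 1.59. Of all genes with a mean of at least 1 FPKM, 24.9% had a smaller ratio of highest to lowest tumor.

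Slc1a5 (ENSMUSG00000001918, chr7:16781340-16798274, plus strand) encodes ASCT2, a sodium-dependent exchanger that brings glutamine into the cell. It was read at 17.8 FPKM (tumor 1), 29.0 (tumor 2) and 20.7 (tumor 3), a mean of 22.5 ± 5.77 (SD, n = 3). The order of tumors was that of Slc3a2, with tumor 2 highest and tumor 1 lowest, and the ratio between them was 1.62 (1.53 to 1.72). Slc1a5 divided by Slc7a5, the glutamine importer over the exchanger that spends glutamine, was 1.10 (tumor 1), 1.33 (tumor 2) and 1.84 (tumor 3).

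Slc38a1 (ENSMUSG00000023169, chr15:96571418-96642913, minus strand) encodes SNAT1, which couples the uptake of glutamine and other small neutral amino acids to sodium. Its FPKM was 17.4 (tumor 1), 24.5 (tumor 2) and 10.7 (tumor 3), a mean of 17.5 ± 6.91 (SD, n = 3). Tumor 2 was 2.29 times tumor 3 (2.21 to 2.39), on the deposited scale the largest ratio among the 8 members with a mean of at least 1 FPKM. With median-of-ratios factors Slc3a2 had a larger one, 2.38 against 2.24.

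Slc38a2 (ENSMUSG00000022462, chr15:96687394-96699698, minus strand) encodes SNAT2, a related carrier known to be induced when amino acids run short. It had the highest FPKM of the 9 members in each tumor, at 48.8 (tumor 1), 52.2 (tumor 2) and 26.0 (tumor 3), a mean of 42.4 ± 14.3 (SD, n = 3). Tumors 1 and 2 lay within 1.07-fold, and tumor 3 stood below both. The mean ranked 656th among all symbols. Slc38a1 and Slc38a2 are neighbours, 44480 bases apart with no gene of the table between them. Slc38a2 exceeded Slc38a1 by 2.81 times (tumor 1), 2.13 (tumor 2) and 2.43 (tumor 3). Together they held 46.9%, 41.6% and 34.5% of the FPKM summed over the 9 members in tumors 1, 2 and 3.

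A level per length depends on the length it is divided by. For Slc38a1 the length that gave whole reads was 16782 bases, beside 17236 for its annotated merged exons, and was 2.31 times its longest annotated coding transcript. The annotated merged exons of Slc38a2 span 1.90 times theirs, whereas for Slc7a5 the factor was 1.05. By reads, Slc38a1 led Slc3a2 in every tumor, with 8954, 7804 and 3726 reads against 2071, 2731 and 1636. Levels of a member in different tumors are divided by the same length, but transcript use was not compared between tumors. For Slc38a2 the length behind its FPKM was not resolved to 1 value.

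The highest tumor exceeded the lowest at least 2-fold for 5 of the 9 members, Slc7a11, Slc38a1, Slc3a2, Slc7a7 and Slc38a2. Of the 11191 genes with a mean of at least 1 FPKM, 34.4% did so. For Slc38a2 the ratio was 2.01 and for Slc7a7 2.06, close to the threshold, and Slc7a5 was just below it. With each tumor rescaled to the same sum 5 members passed as well, but Slc7a5 at 2.10 took the place of Slc3a2 at 1.98. The share of all genes was then 39.4%. With median-of-ratios factors 3 members passed, Slc7a11, Slc3a2 and Slc38a1, beside 32.5% of all genes. Without any 1 of the tumors 2 members passed. The mean of Slc7a11 lies below 1 FPKM, and of the 8 other members 4 passed, with a median ratio of 1.98 against 1.68 over the 11191 genes.

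**Figure D3:**
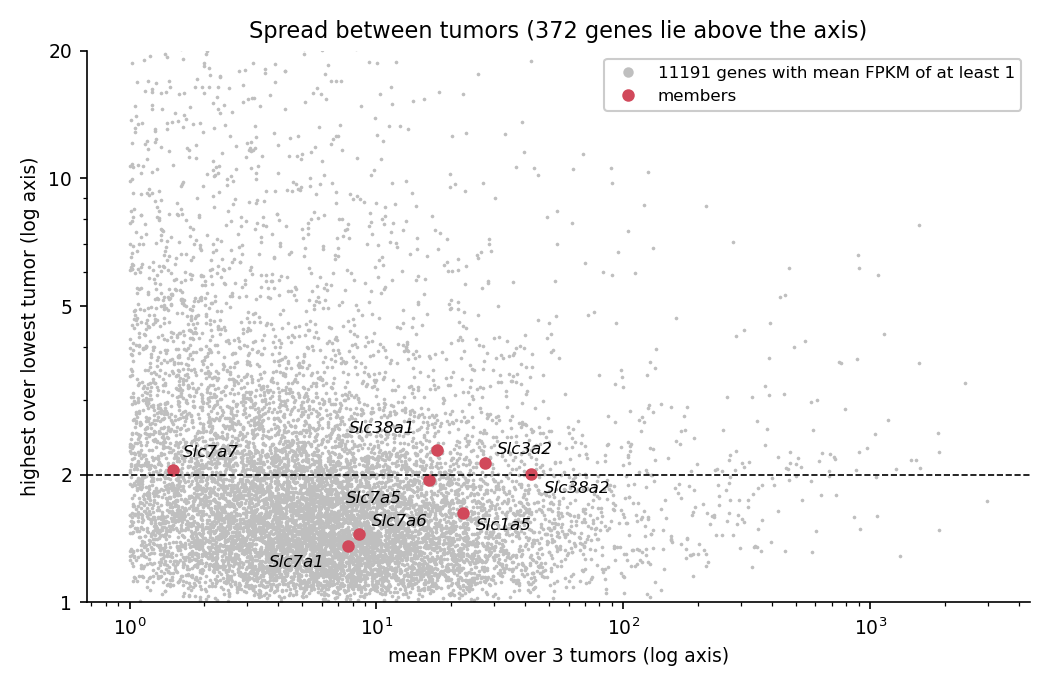
Highest over lowest tumor against mean FPKM, both on log axes, for 11191 genes (grey) and the 8 members with a mean of at least 1 FPKM (red), with a dashed line at 2 and 372 genes above the axis. The members lie between 1.36 and 2.29, inside the cloud of all genes.

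Tumor 2 was the highest for 5 members, Slc3a2, Slc7a5, Slc1a5, Slc38a1 and Slc38a2, against 33.7% of all genes with a mean of at least 1 FPKM. Tumor 1 was the highest for 4, Slc7a6, Slc7a7, Slc7a11 and Slc7a1, against 50.6%, although Slc7a11 lies below that mean. Tumor 3 was the highest for none, against 15.7%, and the lowest for 6, against 37.4%. The 5 members highest in tumor 2 are the 5 most abundant ones, and hold 3 carriers of glutamine and both parts of the LAT1 pair. The scale matters here, since the median gene was 1.13 times higher in tumor 1 than in tumor 2 and 1.18 times higher than in tumor 3. When each tumor was rescaled to the same sum, Slc38a2 became highest in tumor 1, and Slc3a2 and Slc1a5 became lowest in tumor 3. Under median-of-ratios factors the highest and the lowest tumor of each member were as with the deposited values.

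Markers of other cell types in the lymph nodes also differed between tumors. Of 13 macrophage markers 11 had a mean of at least 1 FPKM. Of these 11, 10 were highest in tumor 1, beside 50.6% of all genes with such a mean. Slc7a6, Slc7a7, Slc7a11 and Slc7a1 were highest there as well. The 13 markers summed to 552 FPKM (tumor 1), 151 (tumor 2) and 38.5 (tumor 3). Lyz2 had the highest mean, at 215, 33.1 and 20.3 FPKM, although in tumor 2 Cd68 lay above it, at 51.2. None of the 13 was without a read in all tumors. Cd68 was the exception among the 11, with its highest value in tumor 2. Neutrophil markers summed to 39.5, 1.56 and 17.0 FPKM in the same order, and were led by S100a9. Of these 7 markers only 2, S100a8 and S100a9, had a mean of at least 1 FPKM, and both were highest in tumor 1. Ly6g and Camp were named after their values were seen. Ly6g had 1, 0 and 0 reads, and Camp was highest in tumor 3, at 0.572 FPKM from 9 reads. Dendritic cell markers summed to 9.85, 6.42 and 3.72, with Itgax highest by mean. Of the 4 with a mean of at least 1 FPKM, 3 were highest in tumor 1. Zbtb46, Cd209a and Clec9a, named after their values were seen, were highest in tumor 2. Erythroid markers summed to 202, 38.4 and 4.76, led by Hba-a1.

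The remaining lists had various orders. Of 12 pancreatic acinar markers, genes of the digestive enzymes, 11 had a mean of at least 1 FPKM. All 11 were highest in tumor 2, beside 33.7% of all genes with such a mean. The 12 markers summed to 98.4 FPKM (tumor 1), 497 (tumor 2) and 1.67 (tumor 3). Ctrb1 was highest by mean, at 33.9, 198 and no read. Stroma and endothelium markers summed to 22.8, 52.8 and 5.33 FPKM. Of these Pecam1, with the highest mean, and Dcn were highest in tumor 1, and the collagens Col1a1, Col1a2 and Col3a1 in tumor 2, all named after their values were seen. B-cell markers were highest in tumor 3, with a sum of 104 FPKM against 56.2 in tumor 1 and 13.7 in tumor 2, led by Cd79a. Plasma cell markers summed to 826, 188 and 205 FPKM, most of it from Jchain, whereas Mzb1 and Sdc1, also named afterwards, were highest in tumor 3, at 25.8 and 1.09 FPKM. The T-cell markers summed to 1294, 990 and 1378 FPKM, a narrower span than any of these. Single T-cell markers did not all follow this sum. Tumor 2 held the largest value of Cd3e, Cd3g, Cd5 and Lck, 4 of the 9 markers. For 3 others, Cd8b1 among them, tumor 3 did so, and for 2, Cd8a among them, tumor 1. All 7 proliferation genes were highest in tumor 1 and lowest in tumor 3, with sums of 139, 86.6 and 45.7 FPKM. Of all genes with a mean of at least 1 FPKM, 50.6% were highest in tumor 1 and 37.4% lowest in tumor 3. Mki67 had the highest mean, although in tumor 1 Top2a lay above it, at 42.8 against 38.7 FPKM. The part of these cell types and of proliferation in the members' values was not tested.

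**Figure D4:**
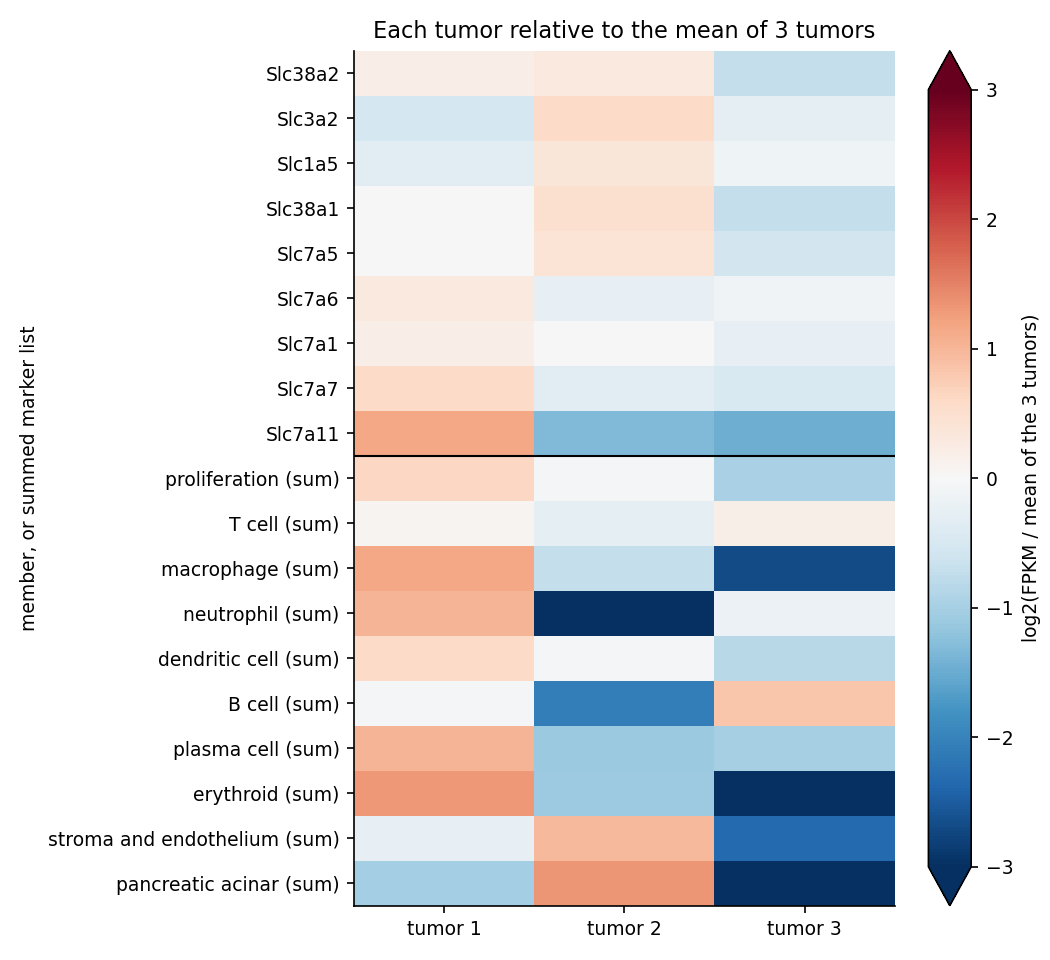
Log2 of FPKM over the mean of the 3 tumors, for each member (above the line) and for the summed FPKM of each marker list (below), with colours capped at -3 and 3. The members vary less than the macrophage, erythroid, neutrophil and pancreatic acinar sums, and Slc7a11 varies most among them.

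Against 45 other amino acid transporters most members stood high by mean, whereas Slc7a7 ranked 17th and Slc7a11 29th of 54. The others were at or above 1 FPKM in every tumor in 8 of 45 cases, beside 28.4% of all symbols. Of the 45, 10 had no read in any tumor. Of the 10 highest means among all 54 transporters, 7 belonged to members. Both lists were chosen with earlier results of these data known, so this too is a description only. The highest of the others was Slc38a10, an amino acid carrier of the SNAT family, at 16.4, 17.8 and 14.0 FPKM in tumors 1, 2 and 3. It was followed by the taurine transporter Slc6a6, at 14.2, 8.74 and 7.84 FPKM. Slc36a1, a proton-coupled carrier of small amino acids at the lysosome, was read at 5.32, 10.2 and 4.08 FPKM and so had its highest value in tumor 2. Slc43a2, the leucine carrier LAT4, was read at 6.93, 4.18 and 4.54 FPKM.

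The fifth of these, Slc6a19, behaved unlike any member. It encodes B0AT1, the neutral amino acid carrier of intestine and kidney, and gave 14.1 FPKM in tumor 1 from 2175 reads, with no read in tumors 2 and 3. Tumor 1 was thus at least 448-fold higher than the 3 reads that a count of 0 allows in tumor 2. Its 14.1 FPKM exceeded Slc7a6 and Slc7a1 in that tumor and came close to Slc7a5. Slc16a10 and Slc36a4, chosen after their values were seen, were also highest in tumor 1. Slc16a10, a carrier of aromatic amino acids, stood at 1.28 FPKM there, at 0.0287 in tumor 2 and at 0.0916 in tumor 3. Slc36a4 stood at 1.17, 0.161 and 0.383 FPKM in the same order.

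**Figure D5:**
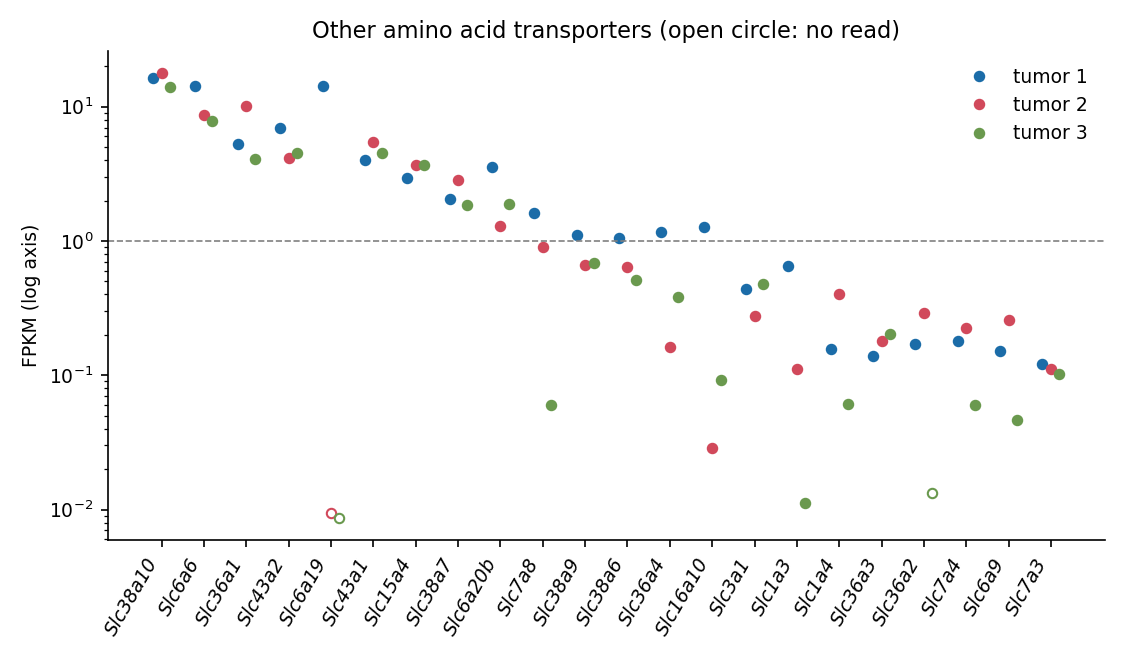
FPKM of the 22 other amino acid transporters with a mean of at least 0.1 FPKM in tumors 1, 2 and 3, on a log axis, with open circles for genes without a read and a dashed line at 1 FPKM. Slc6a19 spans the whole axis between tumor 1 and tumors 2 and 3.

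The amino acid response list holds 19 genes, among them the kinase gene Eif2ak4, which encodes Gcn2, the factor gene Atf4, and genes induced through these when amino acids run short. It did not move as 1 block. Of its 11 genes with a mean of at least 1 FPKM, 5 were highest in tumor 1 and 5 in tumor 2. Among all genes with such a mean the shares were 50.6% and 33.7%. The median of these 11 was 13.8, 12.3 and 9.86 FPKM in tumors 1, 2 and 3, beside 6.16, 5.39 and 5.04 for all genes with such a mean. Over all 19 genes it was 1.92, 3.25 and 3.64 FPKM. Atf4 was read at 30.8, 47.5 and 30.6 FPKM in tumors 1, 2 and 3, so its highest tumor was that of Slc3a2 and Slc7a5. Ddit3, which encodes the stress factor Chop, stood at 4.84, 23.7 and 9.86 FPKM. Ddit4, an inhibitor of mTOR, stood at 24.5, 117 and 74.6 FPKM. Both were lowest in tumor 1, as Slc3a2 and Slc1a5 were on the deposited scale.

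Phgdh, the first enzyme of serine synthesis, was read at 36.7, 51.4 and 41.0 FPKM and so had the tumor order of Ddit3 and Ddit4. Other genes of the list had another order. The enzyme genes Mthfd2 and Psat1, the transcription factor gene Cebpg and Stc2, which encodes a secreted glycoprotein, were chosen after their values were seen and were each highest in tumor 1 and lowest in tumor 2. Asns, the asparagine synthetase and likewise chosen afterwards, was low, at 0.785 FPKM in tumor 1, 0.0771 in tumor 2 from 4 reads and 0.528 in tumor 3. Asns was thus lowest in the tumor where Slc7a5, Slc3a2 and Atf4 were highest.

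Genes for amino acid sensing at the lysosome were measured broadly, with 20 of 23 at or above 1 FPKM in every tumor, beside 28.4% of all symbols. Of these 20, 8 were highest (tumor 1), 7 (tumor 2) and 5 (tumor 3). Among all genes with a mean of at least 1 FPKM the shares were 50.6%, 33.7% and 15.7%. Highest by mean was Lamtor2, a subunit of the Ragulator complex that anchors mTOR, at 14.8, 52.9 and 53.0 FPKM in tumors 1, 2 and 3. Lamtor5, of the same complex, was second by mean and even, at 29.2, 25.2 and 30.0 FPKM. Lamtor4, the third, stood at 11.4, 30.7 and 28.6 FPKM. In tumor 1 alone Lamtor5, Rraga and Rragc lay above Lamtor2, the last at 14.9 FPKM. Tumor 1 was the lowest for Lamtor2 and Lamtor4, as it was on the deposited scale for Slc3a2 and Slc1a5.

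Of 16 genes for amino acid use, 10 had a mean of at least 1 FPKM, and 7 of them were highest in tumor 1, beside 50.6% of all genes with such a mean. The median of these 10 was 13.6, 7.01 and 8.81 FPKM in tumors 1, 2 and 3, and that of all 16 was 3.39, 3.58 and 2.85. Glud1, which turns glutamate into ketoglutarate, was read at 39.3, 16.8 and 25.8 FPKM. Glul, which makes glutamine, was read at 19.0, 7.46 and 10.8 FPKM. Both were lowest in tumor 2, where the glutamine carriers Slc1a5 and Slc38a1 were highest. Got2, the mitochondrial aspartate transaminase, stood at 18.7, 17.5 and 13.4 FPKM, and Odc1, which starts polyamine synthesis, at 16.9, 18.8 and 12.5. Gss, the glutathione synthetase, was low and uneven, at 1.02, 0.588 and 1.58 FPKM.

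Among 8 genes, which hold regulators known to act on the members and targets of Nrf2, Myc had the highest mean. It stood at 55.2 FPKM (tumor 1), 38.0 (tumor 2) and 30.4 (tumor 3). Atf4, at 47.5 and 30.6 FPKM, lay above Myc in tumors 2 and 3. The order of Myc is that of Slc7a1, Slc7a7 and Slc7a11. It is not that of Slc7a5 or Slc1a5, which were highest in tumor 2. Keap1, the inhibitor of Nrf2, was read at 10.2, 19.8 and 13.8 FPKM. Hmox1, a target of Nrf2 that macrophages also make, stood at 15.5, 4.82 and 1.15 FPKM, and so shared its highest and its lowest tumor with Slc7a11. The medians over all 8 were 12.8, 9.18 and 9.27 FPKM, and those over the 6 with a mean of at least 1 FPKM were 15.5, 15.7 and 12.9.

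Likeness of pattern was measured for Slc38a1, the member with the largest ratio on the deposited scale among those with a mean of at least 1 FPKM. The measure was the Euclidean distance between log2 FPKM profiles over the 3 tumors, each centred on its mean, and 171 of 11190 genes, 1.53%, lay within 0.25. With 3 tumors a profile has few free values, so likeness describes the order and size of differences and no more. The nearest were Elovl6, a fatty acid elongase, at a distance of 0.0219, then Bri3bp at 0.0323, Galns, a lysosomal sulfatase, at 0.0358, Gbp9 at 0.0393 and Paqr4 at 0.0471. On log2(FPKM + 1) Paqr4 lay outside the limit, at 0.271, and Galns was nearer than Elovl6, at 0.0291 against 0.0670. Elovl6 was read at 8.01, 11.1 and 4.91 FPKM in tumors 1, 2 and 3. Among the members Slc7a5 was the nearest to Slc38a1, at 0.175, and this was the only pair within 0.25 among the 8 members with a mean of at least 1 FPKM. For Slc7a6 and Slc7a1, whose tumors differ less, 15.8% and 13.6% of genes lay within that limit, so the share depends on the member.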

How the data were processed

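Total RNA of 3 tumors was sequenced in pairs of 150 bp reads, and the labels and the study's methods name different Illumina sequencers. The authors aligned trimmed reads to mm10 (GRCm38) with STAR, and quantified reads of mapping quality 50 or more per gene with SeqMonk, versions not given in the sources used here. The deposited values are FPKM per tumor on a linear scale. The 3 bisulfite libraries, and control and Dnmt3a-deficient RNA-seq libraries, were not analysed here.

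Genes with no read carry a value worth 0.9 read, from which each library's depth was derived. Reads followed from merged exon lengths of GENCODE M21, known for 99.6% of genes, and came out whole (within 0.01 read) in all 3 tumors for 92.0% of these. This held for 6 members. For Slc7a7 and Slc38a1 exactly 1 exon length within 10% of the annotation gave whole reads. For Slc38a2 the search did not settle on 1 length. Intervals are exact Poisson intervals for FPKM and conditional Clopper-Pearson intervals for ratios, at 95%. The count of 3 reads was the limit for a gene without reads. A total of 26 symbols turned into dates were restored from Ensembl identifiers, and of repeated symbols the gene with the highest mean was kept. Castor1 and Castor2 were matched by identifier. No count model was applied to FPKM. Recovery of depth, reads and folds was tested on simulated data.

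Genes named by rule were all members, Dnmt3b, the 5 other transporters with the highest mean and the 5 genes nearest in pattern. Of each pathway list they were the 3 highest means and the largest ratios among genes with a mean of at least 1 FPKM. Of each marker list the gene with the highest mean was named. Other genes named for their values, among them Slc1a3, Slc7a8 and Nos2, were chosen after these were seen. Members and lists were chosen with earlier results of these data known. Alternatives were rescaling to a sum of 1000000, median-of-ratios factors over 9716 genes, other thresholds and pseudocounts, and leaving out each tumor. Promoter windows are from RefSeq. Scripts used SciPy 1.17.1, NumPy 2.4.6, matplotlib 3.10.9 and pandas 2.3.3 under Python 3.11.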

Additional observations from a re-analysis of the deposited data

How the results depend on the processing

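The order of the 9 members by mean was the same under rescaling to a sum of 1000000, under median-of-ratios factors and without each tumor in turn. The count of 8 members at or above 1 FPKM was 8 at a threshold of 0.5 FPKM and 7 at 2 FPKM. The count of 5 members with a highest tumor at least 2 times the lowest was the least stable. It was 7 at a fold of 1.5 and 1 at a fold of 3. With a pseudocount of 0.1 FPKM it was 4, and with one of 1 FPKM 2. It was 3 with median-of-ratios factors, and 2 without replicate 1, 2 or 3. The share of all genes past that fold, 34.4%, was 62.8% at a fold of 1.5 and 16.5% at a fold of 3. It was between 16.4% and 25.3% with 1 replicate left out, since fewer tumors give smaller ratios. A pseudocount of 0.1 FPKM gave 33.2% and one of 1 FPKM 23.7%. Rescaling to a sum of 1000000 gave 39.4%, and median-of-ratios factors 32.5%. For Slc7a11, whose FPKM is low, the ratio of 6.17 was 2.84 with a pseudocount of 0.1 FPKM and 1.27 with one of 1 FPKM. Rescaling moved 1 member, Slc38a2, from tumor 2 to tumor 1 as its highest. The ratio of heavy to light chains ranged from 0.857 to 1.20 with 1 replicate left out, and the count of 8 other transporters from 6 to 10 over thresholds. For Slc38a1, 168 genes were near in pattern on log2(FPKM + 1). Depth limits Slc7a11 and Slc7a7 most, at 16 and 74 reads in tumors 2 and 3. No paired analysis was possible because the results come from 1 group and from no test.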

Other observations

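Slc6a19 was followed further because its reads lay in 1 tumor alone. The genes set beside it were chosen after that value was seen. The next gene along chromosome 13, Slc6a18, a carrier of the same family, had no read in any tumor. The antisense gene Slc6a19os had 9 reads in tumor 1 and none in tumors 2 and 3. On the sides beyond these, Slc12a7 was read in every tumor, at 8.74 FPKM (tumor 1), 5.60 (tumor 2) and 6.25 (tumor 3), and Tert at 0.284, 0.497 and 0.176 FPKM. The intestinal enzyme gene Alpi and the intestinal and renal glucose carrier Slc5a1 had no read in any tumor, while Vil1, of the intestinal brush border, had 1, 5 and 1 reads and the lactase gene Lct 0, 3 and 0 reads in tumors 1, 2 and 3.

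Slc1a3, a glutamate carrier, and Slc7a8, the light chain LAT2, spanned wide ranges while having reads in every tumor. Slc1a3 was read at 0.648 FPKM in tumor 1 from 170 reads, 0.111 in tumor 2 and 0.0113 in tumor 3 from 2 reads. Slc7a8 was read at 1.61, 0.902 and 0.0597 FPKM in tumors 1, 2 and 3. In the amino acid use list Nos2, the inducible enzyme that makes nitric oxide from arginine, was read at 1.04 FPKM from 141 reads in tumor 1, 0.108 from 9 reads in tumor 2 and 0.0109 from 1 read in tumor 3. Slc1a3, Slc7a8 and Nos2 were chosen after their values were seen. Each has tumor 1 as its highest and tumor 3 as its lowest, as do Slc7a7, Slc7a11, Slc7a1 and most of the macrophage markers. The part of these markers in the values was not tested. Other transporters with reads in every tumor had other orders. Slc16a10, with a ratio of 44.6 between highest and lowest, was lowest in tumor 2. Slc1a4 and Slc6a9 were highest in tumor 2, with ratios of 6.57 and 5.47.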
